A study of Homo sapiens with 6 samples.

Results

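The comparison concerned a pair of derivatives of J82, an established human bladder cancer cell line, sampled before any doxycycline was added. One derivative, tet-ZFP36L1, carried a doxycycline-inducible ZFP36L1 construct, and the other, tet-control, was its control line. The members were the libraries titled tet-ZFP36L1 and tet-control at 0 h, which are 2 of the 6 libraries of the series. The other 4 libraries came from the same lines after 6 h and 24 h with doxycycline at 1 µg/mL, after growth to high confluence, and were used here to see which differences of the uninduced lines were still present. Each line at each time had 1 library, so no spread between cultures could be estimated and nothing was tested. The times of a line are different conditions, not replicates. Statements that libraries of one line lay above or below those of the other describe levels only. The labels do not say whether either line was a clone or a pool, or how many passages separated them.

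ZFP36L1 belongs to the ZFP36 family of zinc finger proteins, which bind AU-rich elements in the 3' UTR of short-lived mRNAs and recruit the deadenylation machinery. Many mRNAs of cytokines, chemokines and early-response genes carry such elements. Secreted matrix proteins, integrins, plasminogen activators and their inhibitors set how carcinoma cells attach to and remodel their surroundings, and in the urothelium the factors GATA3, FOXA1 and PPARG maintain luminal identity.

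Levels are counts per 1000000 counts (CPM), from gene sums of estimated counts scaled by TMM. A difference between the lines is log2(CPM + 0.5) of tet-ZFP36L1 less the tet-control value, and "higher" or "lower" means at least 2-fold in that sense, a size with no test behind it. Ratios carry 95% exact binomial intervals that cover counting error only. The libraries held 20739025 to 21380480 estimated counts, of which 19605308 to 20245037 fell on annotated genes, and 11909 genes reached the mean of 50 counts required. Genes at 10 counts or more numbered 15695 in tet-ZFP36L1 at 24 h, against 14515 to 14956 elsewhere. The TMM factor of that library was 1.115, against 0.941 to 1.006. Among the tet-control libraries the one at 6 h, with the factor of 0.941, was the most different. It was at least 2-fold from 0 h in 554 genes and from 24 h in 369. Those at 0 h and 24 h were so in 96. Line differences at 6 h therefore carry changes of the tet-control library too. The totals and size classes below that use the tet-ZFP36L1 library at 24 h are also given with 6 h alone, but some list counts are not.

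Before induction the ZFP36L1 gene itself (GRCh38 chromosome 14, 68787660 to 68796253) was at nearly the same level in both lines. It stood at 234, 223 and 206 CPM in tet-control at 0, 6 and 24 h and at 220, 3127 and 3131 CPM in tet-ZFP36L1. The 0 h ratio was 0.942 (0.904 to 0.981), and the 0 h difference was -0.09, or 0.16 with the deposited TPM. The relative ZFP36L2, which binds the same kind of element, stood at 34.3 CPM in tet-control and 62.3 CPM in tet-ZFP36L1 at 0 h, a ratio of 1.82 (1.65 to 2.00).

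Several urothelial marker mRNAs were absent or near 0 in both lines, and others were present. Of 34 listed luminal factors and markers, 12 were measured and 8 had 0 counts in both lines at 0 h. Of 26 basal and squamous markers, 4 were measured and 10 had 0 counts in both. UPK2 and UPK3A, which encode uroplakins of the umbrella cells, and the basal keratin gene KRT14 had 0 counts in both lines at 0 h. GATA3 had 0 counts in tet-control and 10 in tet-ZFP36L1, TP63 had 0 and 4, and the epithelial cadherin CDH1 had 2 and 8. The simple-epithelium keratin KRT18 stood at 364 CPM in tet-control against 542 in tet-ZFP36L1, and the mesenchymal filament gene VIM at 723 against 1340. The luminal factor FOXA1 was present in both, at 11.3 and 18.7 CPM. Of 20 leukocyte markers 2 were measurable, of 12 endothelial markers matched 2, and of 15 fibroblast markers 3, and PTPRC, KDR and DPT had 0 counts in both lines at 0 h. The summed leukocyte markers stood at 11.4 CPM in tet-control against 20.3 in tet-ZFP36L1. Of the 2 measured, CD68 was higher at all times, at 2.87 at 0 h, but shares 93.7% of its 31-base words with other genes, and CORO1A was within 2-fold. LAPTM5, below the minimum, had 7 and 28 counts. The part of other cells in the results was not tested.

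Of the 11909 measured genes, 601 were higher in uninduced tet-ZFP36L1 (5.05% of all) and 330 were lower (2.77%). As a scale for these numbers, the tet-control libraries at 0 h and 24 h were at least 2-fold apart in 96 genes, and those at 0 h and 6 h in 554. The uninduced lines were apart in 931. In bulk RNA, more cells with a transcript and more of it per cell cannot be told apart. The protein-coding genes among the higher numbered 563 and among the lower 299. Just outside the 2-fold line lay SNX29 at 0.99 and SFXN4 at -0.998, and just inside lay LRP1 at 1.00 and KIF26B at -1.001.

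**Figure D1:**
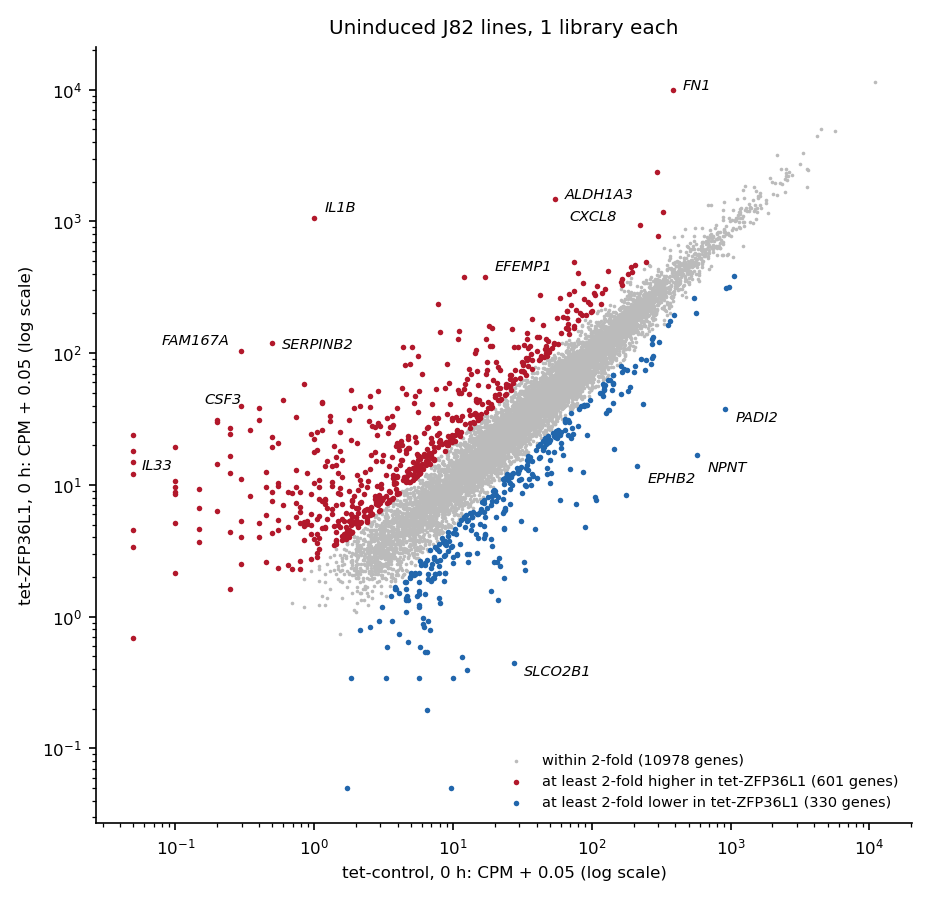
Level of each of the 11909 measured genes in the uninduced lines, tet-control on the x axis and tet-ZFP36L1 on the y axis, in CPM + 0.05 on log scales, 1 library each. The 601 higher genes lie above the diagonal cloud, with IL1B and FN1 far from it, and the 330 lower genes lie below, with PADI2 and NPNT farthest from the cloud among abundant genes.

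Among the largest differences, some genes were near 0 in one line and others were present in both. FAM167A stood at 0.248 CPM in uninduced tet-control and 103 CPM in tet-ZFP36L1, a ratio of 417 (178 to 1285), and ALDH1A3, which makes retinoic acid from retinaldehyde, at 54.0 and 1468 CPM. In the other direction PADI2, an arginine deiminase that citrullinates proteins (chromosome 1, 17066761 to 17119435), stood at 914, 806 and 988 CPM in tet-control and at 37.6, 29.3 and 28.95 CPM in tet-ZFP36L1. The PADI2 levels of the lines did not overlap at any time. SLCO2B1, an organic anion transporter, stood at 27.4 CPM in tet-control and 0.393 CPM in tet-ZFP36L1 at 0 h. Sizes for genes near 0 in one line depend on the pseudocount and unit. The 0 h difference of FAM167A was 7.12 from counts and 5.97 from the deposited TPM, and for SLCO2B1 these were -4.97 and -3.81. With a pseudocount of 5, 330 genes were higher and 161 lower.

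Counted by detection, 16 genes had at most 3 counts in uninduced tet-control and at least 100 in tet-ZFP36L1, all protein-coding. They were NTN1, PLXNA2, CPVL, BACH2, TOX2, SPOCD1, IL33, EPHB1, PALM2-AKAP2, ESM1, ZNF503, BDKRB2, IL7R, ZNF804A, KCNK3 and CR1. Of these, 11 still had at most 3 counts in tet-control at both 6 h and 24 h. Only 2 genes had the reverse pattern, the pseudogenes RPL15P3 and WFDC21P. NTN1, the guidance cue netrin-1, had 0 counts in uninduced tet-control and 23.7 CPM in tet-ZFP36L1, at least 159-fold higher against a floor of 3 counts per library. Its level in tet-ZFP36L1 was then 8.40 CPM at 6 h and 0.091 CPM at 24 h.

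**Figure D2:**
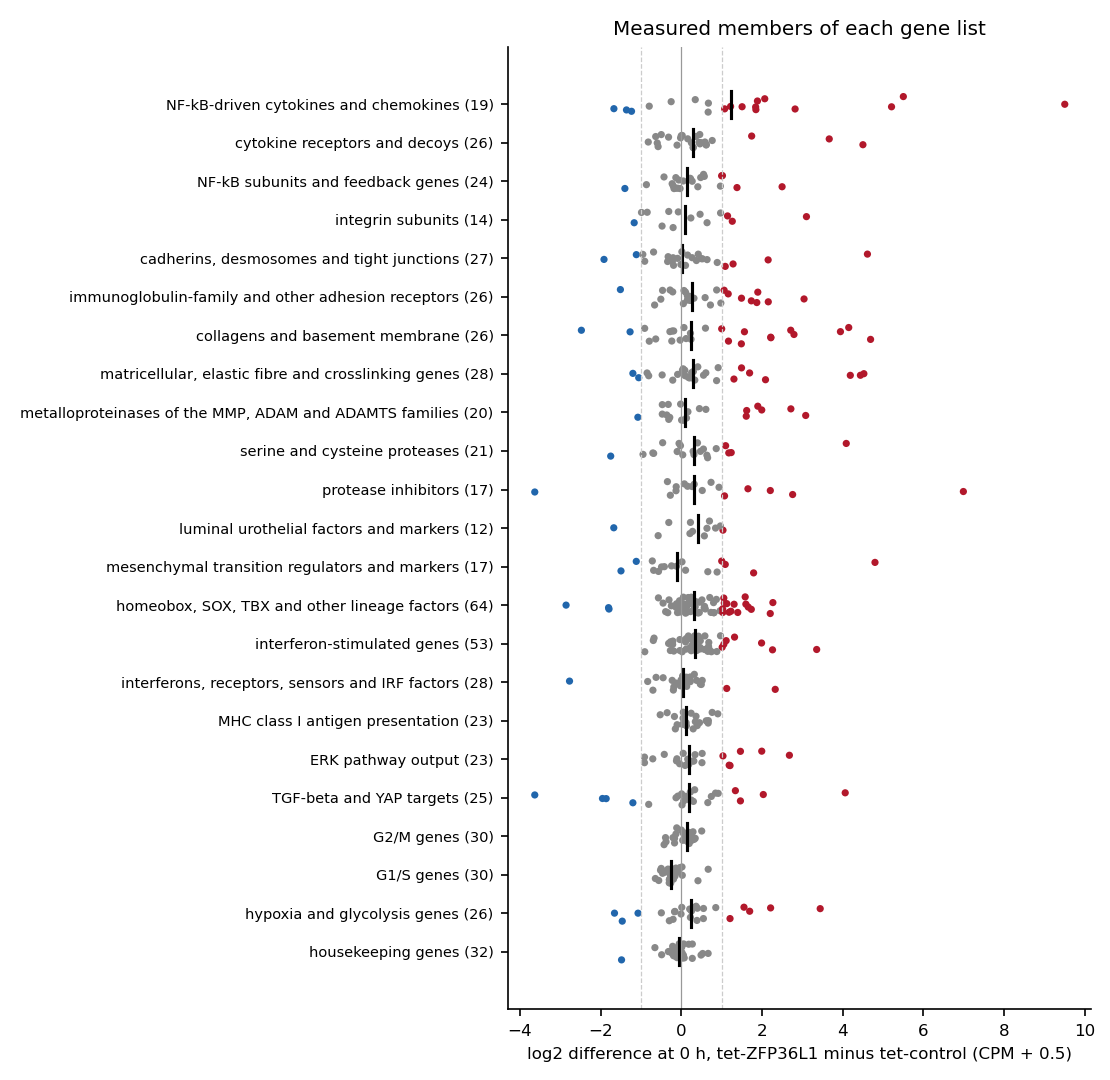
Difference at 0 h, log2 of tet-ZFP36L1 minus tet-control, for every measured member of each gene list with at least 10 measured members, with the number measured in brackets. Points are genes, red when at least 2-fold higher, blue when at least 2-fold lower and grey otherwise, and the black bar is the list's median. The cytokine list has a median of 1.22, while the cell cycle lists have no member beyond 2-fold.

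Inflammatory cytokines and chemokines stood higher in uninduced tet-ZFP36L1. Of 32 listed, 19 were measured, 11 were higher and 3 lower, and the list's median difference was 1.22, against -0.00 over all measured genes. Beside the 0 h counts of this and later lists stand 5.05% of all measured genes higher and 2.77% lower. Beside the counts that held stand the shares of all higher genes that held, 62.9% at 6 h, 70.9% at 24 h and 57.2% at both. IL1B, the inflammatory cytokine interleukin-1 beta (chromosome 2, 112829751 to 112836903, minus strand), stood at 0.943, 0.749 and 0.253 CPM in tet-control and at 1052, 87.8 and 81.8 CPM in tet-ZFP36L1. The 0 h ratio was 1115 (714 to 1853), and IL1B was higher at all 3 times. CSF3, which encodes the granulocyte factor G-CSF, stood at 0.348, 0.428 and 0.608 CPM in tet-control and at 38.1, 4.20 and 6.77 CPM in tet-ZFP36L1. IL33, a nuclear alarmin, had 0 counts in tet-control at 0 h and 18.1 CPM in tet-ZFP36L1, at least 121-fold higher, with 4.41 and 1.51 CPM left at 6 h and 24 h. These were the 3 cytokines that stayed higher at both later times.

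The neutrophil-attracting CXC chemokines were higher together at 0 h and no longer so at 6 h. Their genes CXCL8, CXCL6, CXCL1, CXCL3 and CXCL2 lie side by side among measured protein-coding genes on chromosome 4, between 73740506 and 74099293, and all 5 were higher. CXCL8 stood at 222, 356 and 157 CPM in tet-control and at 932, 221 and 193 CPM in tet-ZFP36L1. CXCL1 stood at 326, 349 and 365 CPM in tet-control and at 1174, 300.2 and 321 CPM in tet-ZFP36L1. For both, only the uninduced tet-ZFP36L1 library lay above the rest. The run's median difference was 1.89 at 0 h, 0.06 at 6 h and 0.79 at 24 h, and of the 5 genes only CXCL3 was higher again at 24 h, at 1.22. CXCL3 shares 30.2% of its 31-base words with other genes, so part of its reads could belong to a neighbour.

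IL6 behaved like the chemokines, then crossed over. It stood at 44.6, 133 and 44.0 CPM in tet-control and at 163, 45.1 and 32.1 CPM in tet-ZFP36L1, so the 0 h ratio of 3.64 (3.38 to 3.92) became a difference of -1.55 at 6 h. LIF, a cytokine of the IL6 family, stood at 195, 304 and 185 CPM in tet-control and at 412, 154 and 100.2 CPM in tet-ZFP36L1. Its difference was 1.08 at 0 h and -0.98 and -0.88 afterwards. The 3 cytokines lower in tet-ZFP36L1 at 0 h were the chemokine CCL20, IL18 and IL32, at -1.67, -1.23 and -1.36. CCL20 was lower at all 3 times, while IL18 and IL32 were lower at 0 h and 6 h and stood at -0.05 and 0.48 at 24 h. Below the count minimum, IL11 had 11 counts in tet-control and 118 in tet-ZFP36L1, IL24 had 0 and 35, and the monocyte chemokine CCL2 had 38 and 0. With a pseudocount of 5, CXCL6 and IL15 and all 3 lower cytokines were within 2-fold at 0 h, at 0.91, 0.54, -0.71 for CCL20, -0.85 for IL18 and -0.98 for IL32, and the list's median was 0.91.

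The AU-rich element that ZFP36 proteins bind is shown here for mRNAs whose 0 h difference is described, because they differ in how it held after induction. Each run is 30 bases of the 3' UTR of the gene's most expressed transcript, on GRCh38, read 5' to 3' on the mRNA strand, with copies of TATTTAT in capitals.
IL1B, chr2:112829991-112830020, minus strand: tcccTATTTATTTATTTATttgtttgtttg
CSF3, chr17:40016978-40017007, plus strand: catgTATTTATctctatttaaTATTTATgt
CXCL8, chr4:73742301-73742330, plus strand: atgataatttctttgatctcccTATTTATa
CXCL1, chr4:73870677-73870706, plus strand: cttcTATTTATTTATTTATtcattagtttt
CXCL2, chr4:74097586-74097615, minus strand: cttcTATTTATTTATTTATTTATTTATttg
CXCL3, chr4:74037078-74037107, minus strand: tactTATTTATgTATTTATttttgaaagct
LIF, chr22:30242564-30242593, minus strand: tttcTATTTATtatgatatccTATTTATat
PHLDA2, chr11:2928502-2928531, minus strand: tatgTATTTATttcgctggttctttgtagt
FN1, chr2:215361016-215361045, minus strand: ctgtTATTTATcaatttttcccagtatttt
Overlapping copies counted separately, the whole 3' UTR held 4 copies in IL1B, 8 in CXCL2, 4 in CXCL1, 3 in CXCL3 and CSF3, 5 in LIF and 1 in CXCL8 and PHLDA2. Copies did not sort these mRNAs by how their difference held. IL1B and CSF3 stayed higher, as did FN1 with 1 copy, SERPINB2 with 1 and PLAT with 2. TNFRSF11B, with 1 copy, and EREG, an EGF receptor ligand with 4, did not stay higher. IL33, SNAI2 and TNC had 0 copies in the transcript used and stayed higher. For IL6 the transcript used has an annotated 3' UTR of only 156 bases, with 0 copies in it. Searched on the mRNA strand alone, 72.2% of 10648 measured genes with an annotated 3' UTR held 0 copies, 17.4% held 1 and 10.4% held 2 or more. A match describes the letters only, and binding was not measured.

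Receptors and pathway components for these cytokines were mostly within 2-fold. Of 26 measured cytokine receptors and decoys 3 were higher and 0 lower, with a median of 0.30, and of 24 NF-kB subunits and feedback genes 4 were higher and 1 lower, with a median of 0.14. IL7R, the interleukin-7 receptor chain, was near 0 in tet-control, at 0.149 CPM, and at 14.2 CPM in tet-ZFP36L1 at 0 h, and its differences were 4.51, 4.60 and 4.90 at the 3 times. With the deposited TPM the first was 2.71. IL13RA2, a decoy receptor for interleukin-13, stood at 3.67, 4.38 and 4.71. TNFAIP3, the ubiquitin-editing enzyme A20 that restrains NF-kB, stood at 26.6, 75.2 and 24.9 CPM in tet-control and at 153, 313 and 217 CPM in tet-ZFP36L1. Each tet-ZFP36L1 library lay above every tet-control library for this gene. TNFRSF11B, the decoy receptor osteoprotegerin, stood at 21.7, 31.5 and 17.7 CPM in tet-control and at 74.0, 8.92 and 12.4 CPM in tet-ZFP36L1, so it was higher at 0 h and lower at 6 h. TRAF1, a signalling adaptor, was lower at 0 h and 6 h (-1.40 and -1.85) and higher at 24 h (1.06).

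**Figure D3:**
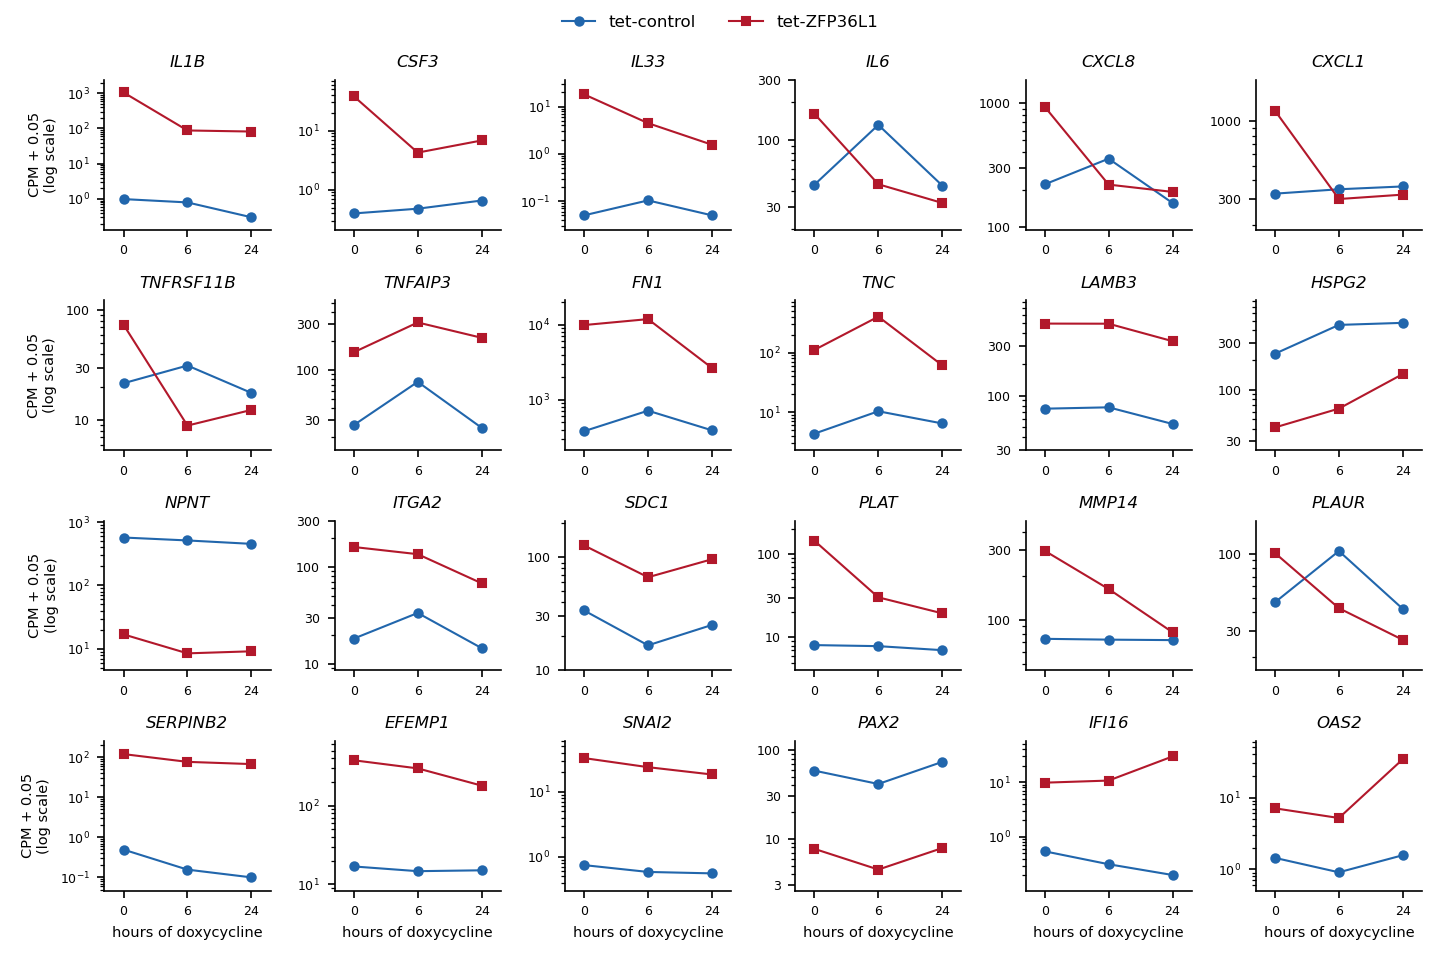
Level of 24 genes in the 6 libraries, in CPM + 0.05 on a log scale that differs between panels, against hours of doxycycline, with tet-control as blue circles and tet-ZFP36L1 as red squares, 1 library per point. IL1B, FN1, LAMB3, NPNT, SERPINB2, SNAI2 and PAX2 keep their order at all 3 times, while IL6, CXCL8, CXCL1, TNFRSF11B and PLAUR cross at 6 h.

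The matrix that the uninduced lines express differed in composition. Of 26 measured collagens and basement membrane genes, 11 were higher and 2 lower, and the list's median was 0.24 at 0 h, then 0.90 and 0.56. The summed level of the listed genes was 3127 CPM in tet-control and 12850 in tet-ZFP36L1 at 0 h, most of it from 1 gene. That gene was FN1, fibronectin, which links integrins to collagen (chromosome 2, 215360440 to 215436172). It stood at 382, 717 and 392 CPM in tet-control and at 9909, 11892 and 2656 CPM in tet-ZFP36L1, with a 0 h ratio of 25.9 (25.4 to 26.5). All 3 tet-ZFP36L1 libraries lay above all 3 tet-control libraries.

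Laminin chains moved apart by chain. LAMA3 and LAMB3, which encode chains of epithelial laminin-332, were higher at every time, LAMB3 at 74.98, 77.3 and 53.4 CPM in tet-control and at 495, 494 and 335 CPM in tet-ZFP36L1. LAMA3 stood at 0.894 CPM in tet-control and 24.3 in tet-ZFP36L1 at 0 h. LAMB1, a chain of other laminins, stood at -1.27, -1.19 and -1.61, or -0.79 at 0 h with the deposited TPM. HSPG2, the heparan sulfate proteoglycan perlecan, stood at 232, 456 and 478 CPM in tet-control and at 41.4, 64.3 and 144 CPM in tet-ZFP36L1, a 0 h difference of -2.48, or -1.78 with the deposited TPM. The collagen VI chains COL6A1 and COL6A2 were higher at all times, at 2.22 and 2.80 at 0 h. Of the 11 higher genes of this list, 9 were higher at both later times, and both lower genes stayed lower.

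Matricellular proteins, which sit in the matrix and signal to cells, gave 7 higher and 2 lower of 28 measured. TNC, tenascin-C, stood at 4.32, 10.3 and 6.43 CPM in tet-control and at 111, 401 and 61.1 CPM in tet-ZFP36L1, and EFEMP1, a matrix glycoprotein of the fibulin family, at 16.8 and 377 CPM at 0 h. Both stayed higher at 6 h and 24 h. The crosslinking enzymes LOX and PLOD2 did not: LOX stood at 1.31, -0.39 and 1.24, and PLOD2 at 1.70, 1.07 and 0.20. NPNT, nephronectin, a ligand of integrin alpha-8 beta-1 (chromosome 4, 105894775 to 106004027), was the other way round. It stood at 572, 514 and 454 CPM in tet-control and at 16.8, 8.40 and 9.06 CPM in tet-ZFP36L1, lower at each time. NTN4, a netrin of basement membranes, at 88.8 and 4.76 CPM, and EDIL3, an integrin-binding secreted protein, at 33.2 and 2.21 CPM, were likewise lower at 0 h and at both later times.

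Of 14 measured integrin subunits 3 were higher and 1 lower. ITGA2, the collagen-binding alpha-2 chain, stood at 18.2, 33.4 and 14.5 CPM in tet-control and at 160, 135 and 67.7 CPM in tet-ZFP36L1, above in each library. ITGA6, a laminin-binding chain, was higher at 0 h only, at 1.15, 0.33 and 0.08. ITGA11, another collagen-binding chain, was lower at all times and most so at 24 h, at -1.17, -1.58 and -2.99. The beta-1 chain ITGB1, the partner of these alpha chains, was within 2-fold at 0 h, at -0.31.

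Cell-cell adhesion differed in single genes, not as a group: of 27 measured cadherin, desmosome and tight junction genes 4 were higher and 2 lower, with a median of 0.02. CDH13, a cadherin anchored by a lipid tail, stood at 0.199 CPM in tet-control and 16.7 CPM in tet-ZFP36L1 at 0 h, and at 4.62, 4.22 and 4.46 in difference. CLDN11, a tight junction claudin, stood at 58.7 and 263 CPM at 0 h, and the mesenchymal cadherin CDH2 at 74.9 and 160. CDH2 was no longer 2-fold apart at 24 h, at 0.66. Among 26 measured adhesion receptors of the immunoglobulin family and others, 8 were higher and 1 lower, and 6 of the 8 stayed higher at both later times. L1CAM, a neural adhesion molecule, stood at 3.05, 2.97 and 2.01. SDC1 and SDC2, both transmembrane heparan sulfate proteoglycans, differed in opposite directions at every time, at 1.90, 1.97 and 1.91 and at -1.51, -2.21 and -1.03.

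Of the plasminogen activators, one was higher at 0 h and the other was within 2-fold. PLAT, the tissue-type activator, stood at 8.04, 7.81 and 6.99 CPM in tet-control and at 145, 30.3 and 19.4 CPM in tet-ZFP36L1, a 0 h ratio of 18.1 (15.4 to 21.3). It stayed higher at 6 h and 24 h, though by less each time (4.09, 1.89 and 1.41). PLAU, the urokinase-type activator, was within 2-fold at 0 h, at 586 and 365 CPM, and stood at -3.51 and -2.98 later. Its receptor PLAUR stood at 46.8, 104 and 42.2 CPM in tet-control and at 101, 42.7 and 26.0 CPM in tet-ZFP36L1, higher at 0 h and lower at 6 h.

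An inhibitor of these activators was far higher in tet-ZFP36L1. SERPINB2, a serpin that inhibits plasminogen activators, stood at 0.447, 0.107 and 0.051 CPM in tet-control and at 120, 77.0 and 67.7 CPM in tet-ZFP36L1. Its 0 h ratio was 269 (142 to 590), and its difference was 6.996, 6.996 and 6.95 at the 3 times. Of the 17 measured protease inhibitors 5 were higher, and 4 of the 5 stayed higher at both later times, among them SERPINB8, SERPINA1 and SERPINE2 at 2.76, 2.21 and 1.65 at 0 h.

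Of 20 measured metalloproteinases 6 were higher and 1 lower. MMP14, the membrane-anchored collagenase, stood at 74.0, 73.1 and 72.5 CPM in tet-control and at 297, 163 and 82.1 CPM in tet-ZFP36L1, so its difference was 2.00, 1.15 and 0.18. ADAM8, a membrane sheddase, stood at 3.09, 1.69 and 2.31, and MMP16, a membrane-type protease, at 2.72, 2.50 and 2.71, with 1.61 at 0 h by the deposited TPM. ADAM19, another sheddase, stood at 17.98, 6.10 and 16.6 CPM in tet-control and at 56.4, 59.4 and 5.17 CPM in tet-ZFP36L1, higher at 0 h and 6 h and lower at 24 h. The gelatinases MMP2 and MMP9 were below the count minimum, with 21 and 2 counts in tet-control and 16 and 0 in tet-ZFP36L1 at 0 h. All 6 higher metalloproteinases were higher at 6 h, and 4 of them at 24 h.

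Lineage factors showed a mixed picture. Of 64 measured homeobox, SOX, TBX and other lineage factors, 15 were higher and 3 lower at 0 h, with a median of 0.32. Of the 15, 5 were higher at both later times, among them NR2F1, an orphan nuclear receptor of neural development (2.27, 1.81 and 2.72), GATA6 (2.21, 1.16 and 1.77) and TBX3 (1.60, 1.80 and 2.09). SOX9 and RUNX2, regulators of cartilage and bone fates, were higher at 0 h only, at 1.40, -0.10 and -0.08 and at 1.59, 0.25 and 0.67. The 3 lower ones were PAX2, SOX2 and MITF. PAX2, a factor of the developing kidney and Wolffian duct, stood at 58.5, 41.4 and 73.5 CPM in tet-control and at 7.66, 4.46 and 7.82 CPM in tet-ZFP36L1, lower at each time.

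SNAI2, the transition regulator Slug, was the main difference among 17 measured mesenchymal regulators and markers, of which 4 were higher and 2 lower. It stood at 0.695, 0.535 and 0.506 CPM in tet-control and at 32.9, 23.9 and 18.4 CPM in tet-ZFP36L1, a 0 h ratio of 47.3 (28.0 to 87.1). ZEB1, a regulator of the same transition, stood at 31.1 and 33.5 CPM at 0 h. TAGLN, a smooth muscle actin-binding protein, was lower at 0 h (-1.49) and level at 6 h (-0.01). The list's median was -0.12, with 0.08 by the deposited TPM, so its sign depended on the unit. PPARG, the luminal nuclear receptor, was lower at all 3 times, at 16.6, 6.42 and 10.9 CPM in tet-control and 4.86, 1.14 and 2.79 CPM in tet-ZFP36L1. Its list went the other way. Of 12 measured luminal factors and markers, 1 was higher at 0 h, KLF5 at 1.04, and PPARG was the 1 lower. The list's median was 0.43 at 0 h, 0.52 at 6 h and 0.74 at 24 h. SHH, the hedgehog ligand, stood at 32.6 and 2.55 CPM at 0 h and was lower at all times, with a 0 h difference of -3.44, or -2.83 with the deposited TPM.

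Interferon-stimulated genes differed modestly before induction and more at 24 h. At 0 h 7 of 53 measured were higher and 0 lower, against 5.05% and 2.77% of all measured genes, with a median of 0.33. At 6 h 13 were higher and 1 lower with a median of 0.44, and at 24 h 37 were higher and 0 lower with a median of 1.35. Over all measured genes the median was -0.05 at 24 h, where 8.88% were higher. The 7 were IFI16, ISG20, OAS2, GBP3, IFIT2, GBP2 and SAMD9L, and all 7 were higher at 24 h. IFI16, a nuclear sensor of DNA, stood at 0.497, 0.268 and 0.152 CPM in tet-control and at 9.72, 10.6 and 29.4 CPM in tet-ZFP36L1. OAS2, an enzyme that activates the antiviral RNase L pathway, stood at 1.39, 0.856 and 1.52 CPM in tet-control and at 7.02, 5.13 and 34.3 CPM in tet-ZFP36L1. These are low levels: IFIT2 and SAMD9L were within 2-fold at 0 h with the deposited TPM, at 0.97 and 0.84. With a pseudocount of 5, 5 of the 7 were, OAS2 at 0.91, ISG20 at 0.80, GBP2 at 0.66, SAMD9L at 0.60 and IFIT2 at 0.52. IFNB1 had 0 counts in all 6 libraries.

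The signalling genes of the interferon pathway were mostly level, with 2 higher and 1 lower of 28 measured and a median of 0.05. Among all measured genes 5.05% were higher and 2.77% lower at 0 h. TLR2, a receptor for bacterial lipoproteins, stood at 2.33, 1.08 and 2.50. STAT6, which carries interleukin-4 and interleukin-13 signals, stood at 6.26, 4.98 and 6.43 CPM in tet-control and at 0.491, 0.363 and 0.366 CPM in tet-ZFP36L1, and its 0 h difference of -2.77 was -1.39 with the deposited TPM. None of 23 measured MHC class I antigen presentation genes was 2-fold apart at 0 h, with a median of 0.13.

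Cell cycle genes were within 2-fold at 0 h. None of 30 G2/M genes and none of 30 G1/S genes was 2-fold apart, with medians of 0.14 and -0.26. Of 32 housekeeping genes 1 was, SDHA at -1.48, a gene that shares 41.8% of its 31-base words with other genes. Of 23 measured ERK output genes, which respond to growth factor signalling, 6 were higher and 0 lower, and FOSB alone of the 6 was higher at both later times. PHLDA2, a growth-restraining imprinted gene, stood at 10.8, 22.7 and 15.4 CPM in tet-control and at 30.8, 6.48 and 3.20 CPM in tet-ZFP36L1, so it crossed to -1.74 and -2.10. The glucose transporter SLC2A1 was higher at 0 h only, at 70.8, 87.7 and 79.2 CPM in tet-control and at 231, 82.7 and 61.2 CPM in tet-ZFP36L1.

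Many differences of the uninduced lines were still there after doxycycline. Of the 601 higher genes, 378 (62.9%) were higher at 6 h, 426 (70.9%) at 24 h and 344 (57.2%) at both. Among all measured genes 5.14% were higher at 6 h, 8.88% at 24 h and 4.01% at both. Of the 330 lower genes, 203 (61.5%) were lower at 6 h, 176 (53.3%) at 24 h and 143 (43.3%) at both, against 6.13%, 8.32% and 3.83% of all. With plain CPM 138 of 317 lower genes were lower at 24 h, and with the deposited TPM 123 of 293. Of all measured genes, 2.89% were higher and 1.2% lower at all 3 times. By sign alone, 547 of the 601 higher genes were above tet-control at 6 h and 552 at 24 h. Among all measured genes 48.9% and 47.2% were. Of the 330 lower genes, 302 and 288 were below it. The other direction at 2-fold was taken by 16 of the higher genes at 6 h and 14 at 24 h, and by 10 and 7 of the lower genes. At 6 h and 24 h the lines differ in induced ZFP36L1 as well, so line and induction cannot be told apart there.

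How often a difference held went with its size at 0 h. Of 391 genes 2-fold to 4-fold higher, 39.4% were higher at both later times. The share was 84.9% of 106 genes 4-fold to 8-fold higher and 96.2% of 104 genes beyond 8-fold. For lower genes these shares were 38.9% of 278, 54.5% of 33 and 89.5% of 19. Choosing genes by their 0 h value favours those whose 0 h library happened to be extreme, which bears most on the smallest class.

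Measured from each line's own 0 h library, the 601 higher genes had a median change at 6 h of -0.37 in tet-ZFP36L1 and 0.06 in tet-control. The 330 lower genes had -0.02 and -0.21, and all measured genes -0.01 in both lines. These changes start from the libraries that chose the genes, so part of a return towards the other line is built in.

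The share that stayed also differed by AU-rich element content. Of 545 higher genes with an annotated 3' UTR, 330 had 0 copies of TATTTAT, and 71.2% of them were higher at 6 h and 78.2% at 24 h. With 1 copy (128 genes) the shares were 61.7% and 70.3%, and with 2 or more (87 genes) 48.3% and 57.5%. The starting medians were alike, at 1.56 for 0 copies and 1.56 for 2 or more. Among lower genes the order was the reverse, with 59.2% of 218, 77.5% of 40 and 84.4% of 32 still lower at 6 h, and 52.3%, 62.5% and 65.6% at 24 h. Their starting medians were not alike, at -1.27, -1.56 and -1.47. Over all genes the median line difference for 2 or more copies was 0.10 at 0 h, -0.26 at 6 h and -0.27 at 24 h, and for 0 copies it was -0.03, 0.05 and -0.00. The median 3' UTR was 601 bases with 0 copies and 3110 with 2 or more over all genes, and its part in these shares was not tested.

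**Figure D4:**
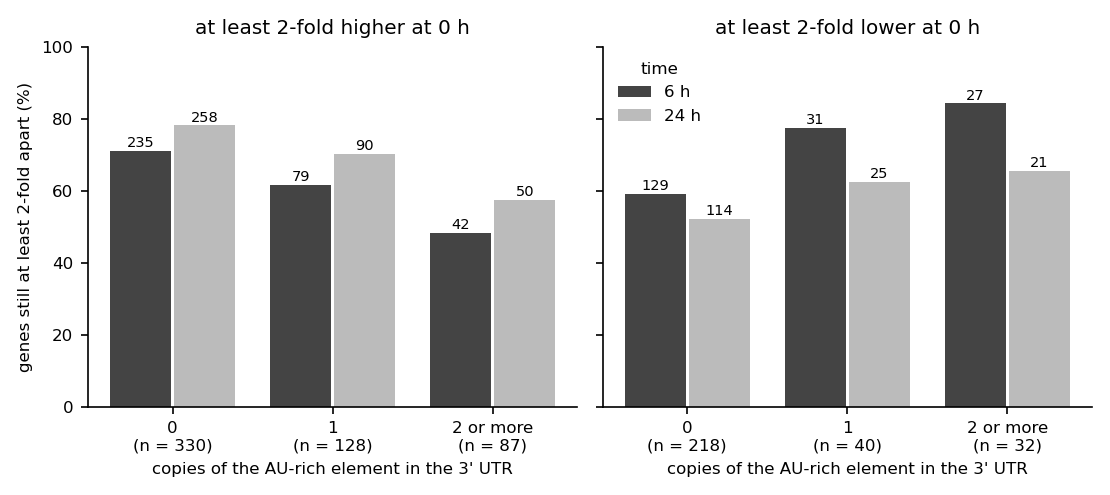
Percentage of genes at least 2-fold higher (left) or lower (right) at 0 h that were 2-fold apart in the same direction at 6 h (dark bars) and 24 h (light bars), by copies of the AU-rich element in the 3' UTR, with the number of genes above each bar. The bars for higher genes go from 71.2% to 48.3% at 6 h as copies increase, and those for lower genes from 59.2% to 84.4%.

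Many of the lower genes lay together at one chromosome end. Of chromosome 16's measured genes 10.5% were lower, against 2.77% of all. The measured genes from 14381 to 5097808, at the end of the short arm, numbered 127, and 123 of them were below tet-control at 0 h, with a median of -0.82 and quartiles of -1.10 and -0.56. Over all measured genes, 49.7% were above tet-control at 0 h, 48.9% at 6 h and 47.2% at 24 h. Within this stretch the median was -0.76 at 6 h and -0.67 at 24 h. The next 68 genes, from METTL22 at 8621683 to 20 Mb, had a median of -0.18 at 0 h, and the remaining 385 had -0.03. Of 431 windows of 2 Mb with at least 10 measured genes, the 3 at this end had medians of -1.08, -0.70 and -0.68, and the others lay between -0.49 and 0.87. Among those others, the chromosome 16 windows from 18000001 to 24000000 were also low, at -0.466, -0.356 and -0.455.

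Of the 330 lower genes, 50 lay in this stretch, and 0 higher genes did. They include AXIN1, a scaffold of beta-catenin destruction, at 63.8, 58.8 and 60.7 CPM in tet-control and at 29.8, 27.0 and 31.9 CPM in tet-ZFP36L1, with a 0 h difference of -1.08, or -0.98 with the deposited TPM. STUB1, a ubiquitin ligase that works with chaperones, stood at 123, 98.2 and 124 CPM in tet-control and at 52.1, 46.6 and 43.3 CPM in tet-ZFP36L1. TRAP1, the mitochondrial HSP90, stood at 274, 236 and 261 CPM in tet-control and at 95.3, 100.3 and 77.9 CPM in tet-ZFP36L1. For these 3 genes each tet-ZFP36L1 library lay below every tet-control library. At the 2-fold cut, 23 (46%) of the 50 lower genes were lower at 6 h, 27 (54%) at 24 h and 18 (36%) at both. By sign alone, 50 of them were below tet-control at 6 h and 48 at 24 h. Their median difference was -1.17 at 0 h, -0.94 at 6 h and -1.05 at 24 h, close to that cut. IL32, described above, lies in the stretch too. Without these 127 genes 280 lower genes remained, of which 180 were lower at 6 h, 149 at 24 h and 125 at both. DNA was not measured, and what underlies the shift was not tested.

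**Figure D5:**
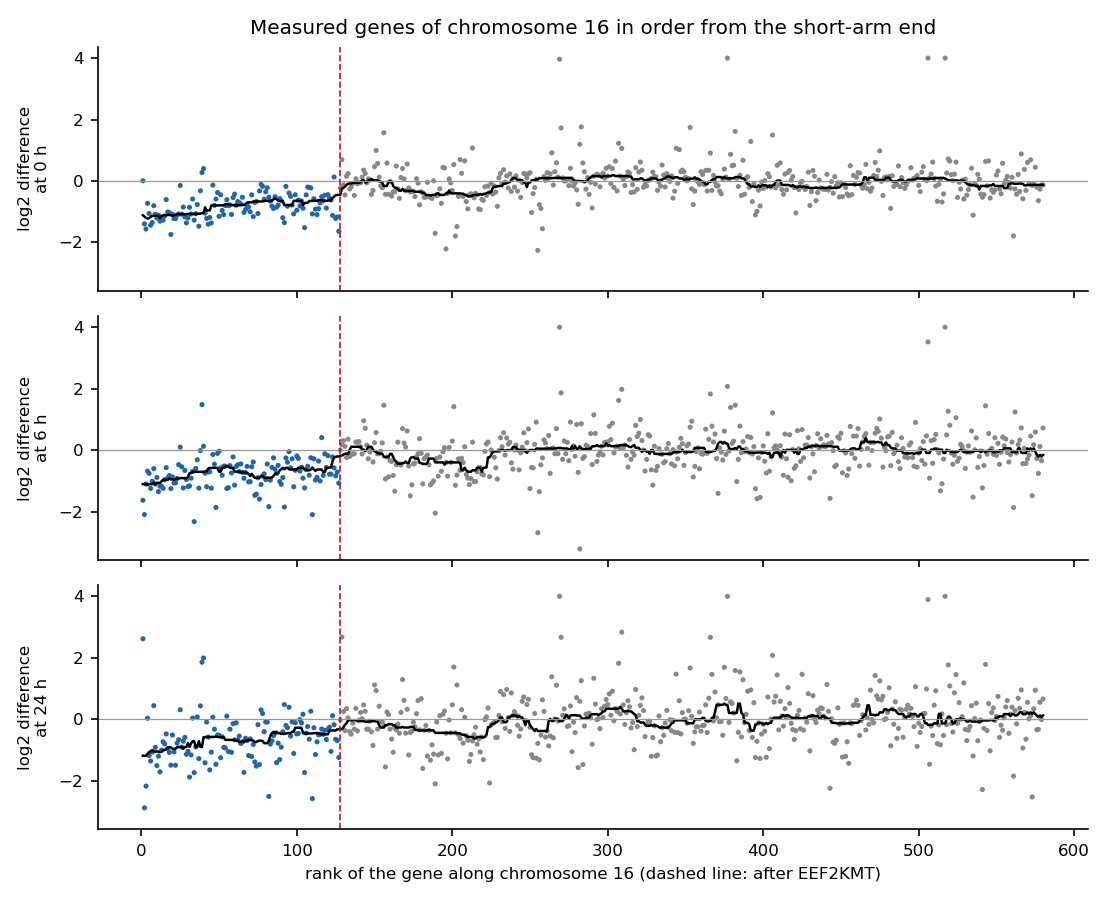
Difference of the lines at 0, 6 and 24 h for the 580 measured genes of chromosome 16, in order from the short-arm end, on the log2 scale with values beyond 4 drawn at 4. Points are genes, blue for the 127 up to EEF2KMT, and the black line is the running median of 21 genes. The blue points lie mostly below 0 at all 3 times. At 0 h the next 68 genes after the dashed line have a median of -0.18 and the remaining 385 have -0.03.

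Higher genes also lay in runs of at least 3 measured protein-coding neighbours, on chromosomes 1, 2, 4, 6, 9, 11 and 12. The longest of these runs was the one on chromosome 1. On chromosome 1 from 207043849 to 209676388, the 7 measured protein-coding neighbours YOD1, CD55, CR1, CD46, PLXNA2, LAMB3 and G0S2 were all higher at 0 h, with medians of 2.72, 1.86 and 1.68 at the 3 times. CD55, CD46 and CR1 encode regulators of complement. CD55 stood at 12.6 and 63.6 CPM at 0 h and stayed higher, while CD46 stood at 190 and 447 CPM and was within 2-fold later, at 0.46 and -0.21. G0S2, an inhibitor of fat breakdown, stood at 3.69, 1.86 and 1.22.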

How the data were processed

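The BGISEQ-500 gave the reads of these J82 libraries, per the labels. The deposited estimated counts and TPM are values per transcript, need not be whole, and come from kallisto, which the submitters' processing notes name beside DESeq2 and hg19. Versions, strand and what DESeq2 was used for are not given in the sources used here. Identifiers of the 196354 deposited transcripts were looked up in GENCODE 29 (GRCh38), where 181857 were found. Unmatched ones held 5.12% to 5.46% of estimated counts and were left out. Positions and sequences are from that annotation, since no hg19 reference was used. Without strand, overlapping genes cannot be separated.

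Gene sums of estimated counts were rounded to whole numbers. TMM factors (edgeR 4.0.16, R 4.3.3) used genes averaging 10 counts or more, and genes averaging 50 or more were analysed. No count test was run, because each group had 1 library. Ratios carry Clopper-Pearson 95% intervals of the counts, and they cover counting error only, since no molecular identifiers are described. The 3' UTR was read from the gene's most expressed transcript, by mean TPM, among those whose stop codon is annotated. Named genes were searched for 31-base words shared with other genes, and those sharing at least 50% (CD68, KIAA0408, TUBB3, RPS2, NUSAP1, SOD2, KRT8, EEF2KMT and FAM234A) are uncertain.

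The lines, the lists and the other choices were made with earlier results of these data known. Genes were named by size: the 15 largest differences each way, the 10 largest each way that held at all times, the 4 largest of each list, and runs of neighbours. Other list members, such as IL6, LIF, PLAUR, ADAM19 and SLC2A1, were named after their values were seen. Alternatives were DESeq2 1.42.0 size factors, plain CPM, deposited TPM, other count minimums, pseudocounts and folds, protein-coding genes alone, and, added after seeing the data, leaving out the chromosome 16 end and the tet-ZFP36L1 library at 24 h from scaling. The 2-fold calls and the ratio intervals were tested on simulated counts with counting error only. The other steps were not tested in this way. One gene is not reported here.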

Additional observations from a re-analysis of the deposited data

Results flagged for a closer look

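For 7 genes of the lists the uninduced difference and a later one were both at least 2-fold and opposite in direction, with 1 library on each side, and the change of direction was not tested. IL6 stood at 1.85 at 0 h and -1.55 at 6 h, TNFRSF11B at 1.75 and -1.76, and PLAUR at 1.10 and -1.28. PHLDA2 stood at 1.47 at 0 h, -1.74 at 6 h and -2.10 at 24 h. TGFA, a ligand of the EGF receptor, stood at 118 CPM in tet-ZFP36L1 against 57.1 at 0 h and at -1.13 at 24 h, and with the deposited TPM its 0 h difference was 0.90. ADAM19 stood at 1.62 at 0 h and -1.59 at 24 h. TRAF1 was the one that went the other way, from -1.40 at 0 h to 1.06 at 24 h. In tet-control at 6 h, IL6, PLAUR, PHLDA2 and TNFRSF11B were each above their 0 h level, and in tet-ZFP36L1 each was below it.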

How the results depend on the processing

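The counts of genes depended most on the fold and on low counts. At 1.5-fold there were 1193 higher and 950 lower genes at 0 h. Of the higher, 729 held at 6 h, 823 at 24 h and 638 at both, and of the lower 573, 545 and 421. At 4-fold there were 210 higher and 52 lower, with 139, 167 and 132 higher and 33, 30 and 26 lower genes that held. A pseudocount of 5 gave 330 higher and 161 lower, with 189, 222 and 168 and with 92, 93 and 68 that held. A mean count of at least 200 gave 332 higher and 197 lower, with 212, 221 and 188 and with 123, 115 and 88. A mean count of at least 10 gave 925 higher genes. These follow from the size or number of genes admitted. Under the other alternatives run (DESeq2 size factors, plain CPM, deposited TPM, a minimum of 50 at 0 h, a pseudocount of 0.1, protein-coding genes alone, and those added after seeing the data) each count stayed within 1.5 times, and the higher genes at 0 h ranged from 553 to 640. The deposited TPM shared 516 of the 601 higher and 249 of the 330 lower genes. It moved the median of all genes at 24 h to 0.14 from -0.05, as plain CPM did. The median of the mesenchymal list turned from -0.12 to 0.084 with the deposited TPM and to 0.020 with a mean count of at least 10, and the cause was not tested. Low counts limit genes near the minimum, and variation between cultures is in no interval.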
